A study of Mus musculus with 2 samples.

Results

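The S100 proteins are small calcium-binding proteins, and 8 S100 genes, listed by name, were followed in blood neutrophils of the mouse: S100a8, S100a9, S100a4, S100a6, S100a10, S100a11, S100a13 and S100a1. They are 8 of the 55536 annotated genes that the gene tables hold. Total RNA was sequenced in 2 libraries of 1 group, neutrophils from peripheral blood of adult C57BL/6J mice aged 5 to 6 weeks, with no treatment named and sex recorded as not collected. The libraries are numbered biological replicates 1 and 2, and each was prepared from 100 ng of RNA with the ScriptSeq v2 kit. Both carry 1 donor identifier, and nothing says whether animals were pooled, so how far they differ may reflect technique alone. No second condition exists, and each gene was compared with other genes or between the 2 libraries, never between treatments.

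An S100 protein carries a pair of EF hands, helix-loop-helix folds whose loop holds a calcium ion, and most members act as dimers. Calcium opens a surface on the dimer that grips a target protein inside the cell. S100A8 and S100A9 pair with each other as calprotectin, the main cytosolic protein of the neutrophil, which also withholds zinc and manganese from microbes and, once released, acts as an alarm signal. S100A4 binds non-muscle myosin, S100A6 (calcyclin) binds the calcyclin-binding protein, and S100A10 and S100A11 bind annexins. S100A13 is known for release of growth factors that lack a signal peptide, and S100A1 is best known from heart muscle.

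The EF hand nearer the end of each protein holds the canonical calcium loop, and its coding bases are shown because the loop is the shared working part of the family and because 1 of the 8 genes departs from it. Each run below is the 12 codons of that loop, from the leading GENCODE M21 transcript on the GRCm38 build, 5′ to 3′ on the coding strand. Capitals mark codons 1, 3, 5 and 12, whose residues have side chains that reach the calcium ion in the canonical loop. Genes are in order of their transcript level.
S100a9 (chr3:90692851-90692886, minus strand): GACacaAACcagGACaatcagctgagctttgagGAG
S100a8 (chr3:90669872-90669907, plus strand): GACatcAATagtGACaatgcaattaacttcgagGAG
S100a6 (chr3:90614233-90614268, plus strand): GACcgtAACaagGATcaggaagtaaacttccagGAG
S100a11 (chr3:93526037-93526072, plus strand): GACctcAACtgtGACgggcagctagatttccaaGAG
S100a10 (chr3:93564288-93564323, plus strand): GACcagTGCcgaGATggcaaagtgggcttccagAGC
S100a4 (chr3:90605785-90605820, plus strand): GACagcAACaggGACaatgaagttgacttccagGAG
S100a13 (chr3:90524389-90524424, plus strand): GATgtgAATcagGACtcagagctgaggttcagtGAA
S100a1 (chr3:90511284-90511319, minus strand): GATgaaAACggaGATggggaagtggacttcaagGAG

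In 7 of the 8 genes the third codon is AAC or AAT and the last is GAG or GAA. S100a10 is the exception at both places, with TGC and AGC, and its protein is known as the member that stays in its active shape without calcium. The loop lies within 1 exon in every gene, the last exon of the transcript. Over the 36 bases, S100a4 shares 29 with S100a8 and 24 with S100a9, while S100a8 and S100a9 share 23 with each other. S100a10 shares 14 with S100a8 and 16 with S100a9, fewer than any of the other members share with either.

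Transcript levels of the 8 genes spanned 3 orders of magnitude in the same libraries. Levels are given as TPM, a share of all transcripts in the library corrected for gene length, which allows genes of a library to be compared. They are also given as mean ± SD over the 2 libraries (n = 2). Protein-coding genes outside the mitochondrial genome held only 8.81% of TPM in replicate 1 and 8.35% in replicate 2. Rescaled to those genes alone, S100a1, the lowest member, was at 10.9 TPM in replicate 1 and 12.7 TPM in replicate 2. Detection required 1 TPM or more in each library, and 7 of the 8 genes (87.5%) met it, against a background of 34.9% (7673 of 22015) of the protein-coding genes outside the mitochondrial genome. The members were listed with results of these data already known, so the share describes them and tests nothing. S100a9, S100a8, S100a6, S100a11, S100a10, S100a4, S100a13 and S100a1 stood in this descending order in both libraries.

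S100a9 and S100a8, the calprotectin genes, stood far above the rest. S100a9 was at 1123 TPM in replicate 1 and 1275 TPM in replicate 2 (1199 ± 107), from 38243 and 44418 expected counts. Among protein-coding genes it ranked 3rd by mean TPM, between the predicted gene Gm10800 (1237 ± 234) and the beta-globin gene Hbb-bs (852 ± 32.1). The gap to Gm10800 was within that gene's own spread, while Hbb-bs was lower than S100a9 in both libraries.

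S100a8 was at 786 TPM in replicate 1 and 712 TPM in replicate 2 (749 ± 52.0), from 24684 and 22933 expected counts. It ranked 5th, directly below Hbb-bs and above the actin gene Actb, which was at 762 and 611 TPM (686 ± 106). The level of S100a8 was above that of Actb in each library, but the ranges of the 2 genes overlapped, so the order of this pair rests on the comparison within libraries.

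S100a6 was the next member at 98.5 TPM in replicate 1 and 129 TPM in replicate 2 (114 ± 21.4). Its rank among protein-coding genes was 96 in replicate 1 and 56 in replicate 2. Replicate 2 was the higher library, and S100a6 had the widest relative spread of the 8 genes.

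The annexin partners S100a11 and S100a10 followed. S100a11 was at 56.7 and 47.6 TPM (52.2 ± 6.48), rank 219, and replicate 1 was the higher library. S100a10 was at 34.9 and 33.9 TPM (34.4 ± 0.700), rank 370, with the smallest relative spread among the members. The ranges of these genes did not overlap with each other or with that of S100a6.

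S100a4, the myosin-binding member, was at 8.24 TPM in replicate 1 and 7.2 TPM in replicate 2 (7.72 ± 0.735), from 268 and 240 expected counts. S100a13 was at 3.02 and 3.37 TPM (3.20 ± 0.247), from 162 and 184 expected counts. Both genes stayed above the detection level in each library, at ranks 2258 and 4787.

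S100a1 lay at the detection level itself. It was at 0.960 TPM in replicate 1 and 1.06 TPM in replicate 2 (1.01 ± 0.0707), from 48 and 54 expected counts. Replicate 1 fell just short of a TPM of 1, and the interval deposited with each value, 0.736 to 1.29 TPM in replicate 1 and 0.826 to 1.40 TPM in replicate 2, contains the detection level. S100a1 is therefore measured with counts in both libraries although it does not count as detected in the M21 table. It passed in the alignment-free table, at 1.44 and 1.42 TPM, and also with the minimum TPM at 0.1, with a minimum of 10 expected counts in place of TPM, and with TPM rescaled to the protein-coding genes outside the mitochondrial genome, so that all 8 genes were then detected. With the minimum TPM at 5, 6 of the 8 genes were. S100a9 was 1170-fold above it in replicate 1 and 1202-fold above it in replicate 2.

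**Figure D1:**
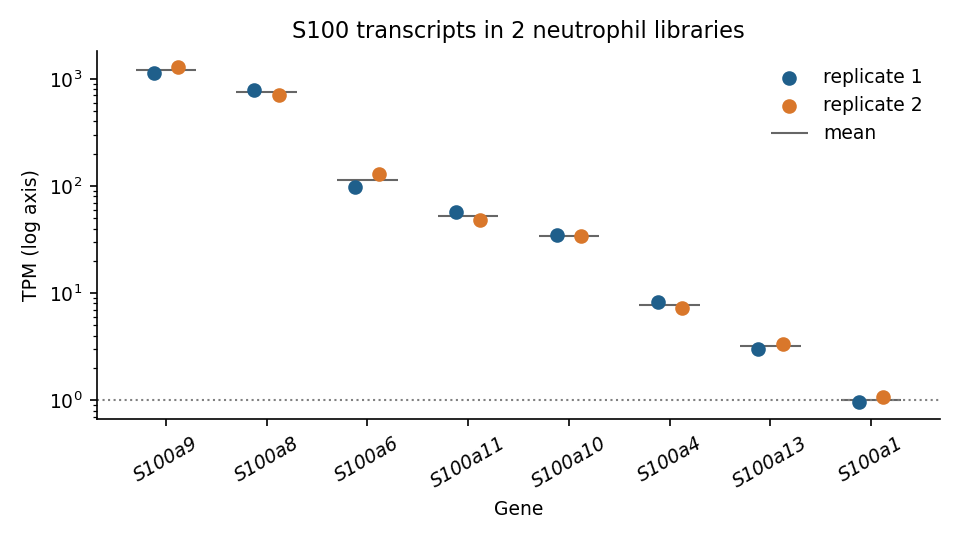
TPM of the 8 S100 genes (log axis) in replicate 1 and replicate 2, with a line at the mean of the 2 libraries and a dotted line at the detection level of 1 TPM. S100a9 and S100a8 stand above 700 TPM in both libraries, the next gene, S100a6, at 98.5 and 129 TPM, and S100a1 on the detection level.

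Neighbours in the order were separated by steps of unequal size, all larger than their spread between the libraries. The largest was from S100a8 to S100a6, 7.98-fold in replicate 1 and 5.53-fold in replicate 2, a log2 difference of 2.73 ± 0.37. In the table on the older GENCODE M4 gene models it was 18.2-fold and 13.7-fold (log2 3.98 ± 0.29). The next largest was from S100a10 down to S100a4, 4.24-fold and 4.71-fold (log2 2.16 ± 0.11). The smallest by mean was from S100a11 to S100a10, 1.63-fold and 1.40-fold (log2 0.59 ± 0.15), although in replicate 1 the step from S100a9 to S100a8 was smaller, at 1.43-fold. In expected counts, which are not corrected for length, the step from S100a11 to S100a10 had opposite signs in the libraries, at log2 0.12 and -0.09.

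The calprotectin pair made up nearly all S100 transcripts. The 8 genes summed to 2111 TPM in replicate 1 and 2208 TPM in replicate 2, of which S100a8 and S100a9 held 90.42% and 89.96% (90.2 ± 0.326%). Against all protein-coding TPM outside the mitochondrial genome, the 8 genes took 2.40% in replicate 1 and 2.65% in replicate 2 (2.52 ± 0.176%). The other 6 genes took 0.230% and 0.266% of it. Of the expected counts of the same protein-coding genes, the 8 genes held 0.428% and 0.489% (0.459 ± 0.0436%). These are short transcripts, and a share of counts weights each gene by its length.

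S100a9 transcripts outnumbered S100a8 transcripts in both libraries, although their proteins join in equal numbers in the calprotectin dimer. The TPM ratio of S100a9 to S100a8 was 1.43 in replicate 1 and 1.79 in replicate 2, a log2 ratio of 0.68 ± 0.23. In expected counts the ratio was 1.55 with a 95% interval of 1.52 to 1.57 in replicate 1, and 1.94 with an interval of 1.91 to 1.97 in replicate 2 (exact binomial, counting error only). The intervals of the 2 libraries do not meet, so the ratio differed between the libraries by more than counting error. In TPM, S100a9 was higher and S100a8 lower in replicate 2, and both moved the ratio the same way.

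The size of this ratio depended on the gene models. In the table on the older GENCODE M4 models, S100a9 was at 1136 and 1288 TPM, close to its M21 level, but S100a8 was at 1101 and 988 TPM. The ratio there was 1.03 in replicate 1 and 1.30 in replicate 2 (log2 0.21 ± 0.24), a gap no larger than the spread between the libraries. The counts of S100a8 were much the same under M4, 24188 and 22456. Its annotated length was not: 392 nt under M4 against 487 nt under M21, with effective lengths of 227 and 321 nt in replicate 1.

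The start of S100a8 is also placed differently by another catalogue. RefSeq puts it 93 bases inside the GENCODE M21 start, at position 90669071 of chromosome 3 against 90668978, whereas both catalogues give position 90695721 for S100a9. In the alignment-free table, which uses the M21 models, the ratio was 1.67 and 2.06. S100a9 was the higher gene of the pair in each library of all 3 tables.

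**Figure D2:**
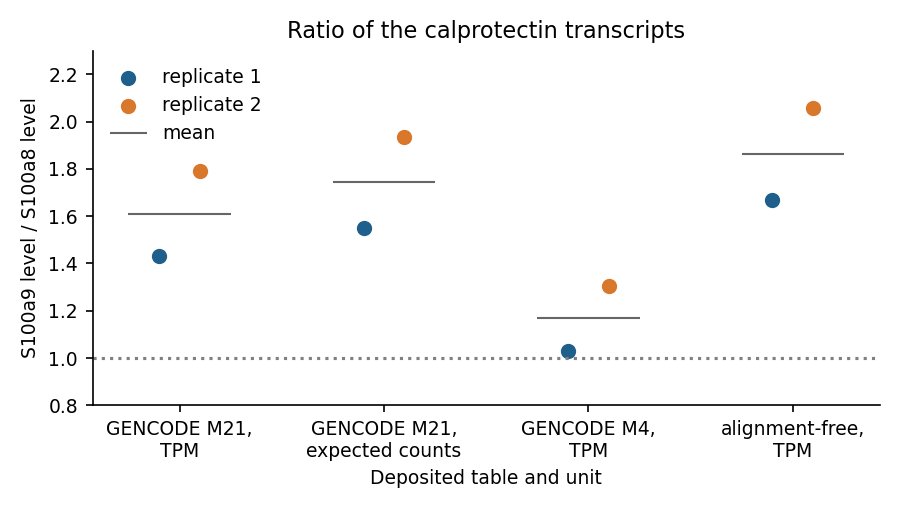
Ratio of the S100a9 to the S100a8 level in each library, from the M21 gene table in TPM and in expected counts, from the M4 gene table in TPM and from the alignment-free table in TPM; lines mark means and the dotted line equal levels. Replicate 2 lies above replicate 1 in every column, and the M4 values, 1.03 and 1.30, are the lowest.

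Between the libraries, none of the 8 genes met the rule for a difference, a (TPM + 1) fold of at least 2 with at least 50 expected counts in the higher library, while 84 of 9097 genes did (0.923%). S100a6 had the largest change, a log2 (TPM + 1) fold of 0.38 toward replicate 2, and S100a11 the next, at -0.25. Over the 8146 protein-coding genes that passed the same minimum levels and had a TPM above 0 in both libraries, the median log2 TPM ratio was -0.10, with the 10th and 90th percentiles at -0.41 and 0.23. On this scale S100a6, at 0.39, lay beyond the 90th percentile, and the other 7 genes lay inside the range.

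Counting error alone covered the difference between the libraries for the low members but not for the high ones. Per library total, the count in replicate 2 over that in replicate 1 was 1.23 for S100a9 (95% interval 1.21 to 1.24) and 1.28 for S100a6 (1.22 to 1.34). S100a8 at 0.980 (0.962 to 0.998) and S100a11 at 0.906 (0.848 to 0.968) were lower in replicate 2. With TMM factors, an alternative chosen after seeing the data, the interval of S100a8 was 0.976 to 1.01 and contained 1, and with DESeq2 size factors it was 0.972 to 1.01. The intervals of S100a10, S100a4, S100a13 and S100a1 all contained 1, and the widest, that of S100a1, ran from 0.789 to 1.79. A difference smaller than that was not detectable for S100a1 at this depth.

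**Figure D3:**
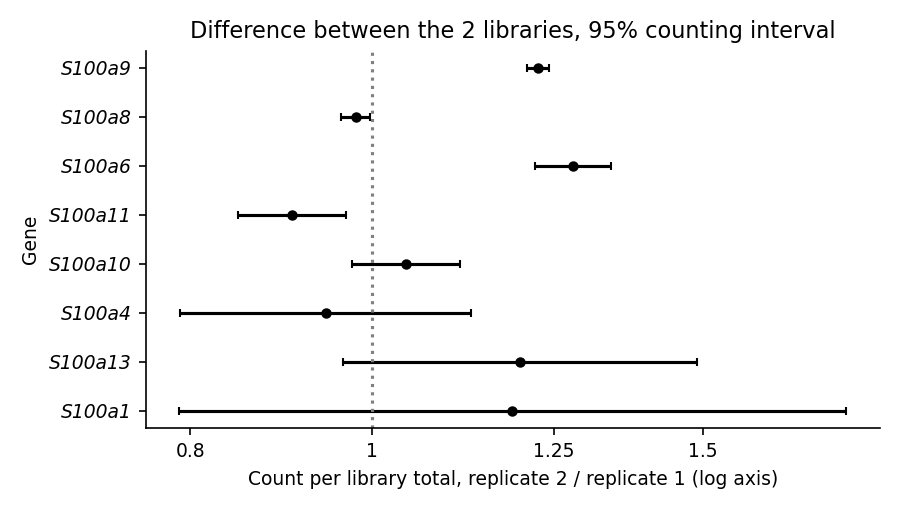
Count per library total in replicate 2 over replicate 1 for each S100 gene (log axis), with exact 95% intervals that cover counting error only; the dotted line marks no difference. S100a9 and S100a6 lie above 1, S100a8 (by library totals, though not with TMM or DESeq2 factors) and S100a11 below it, and the intervals of the remaining 4 genes contain it.

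For 5 of the 8 genes a single transcript held nearly all of the TPM in the M21 table, while S100a9, S100a8 and S100a6 were divided among transcripts to different degrees. The transcript tables divide each gene's TPM among its annotated transcripts, in percent. S100a11-201 and S100a13-201 are the only annotated transcripts of their genes, and S100a4-201 and S100a1-201 took 100% in both libraries although a further transcript is annotated for each. Counted without alignment, S100a4-202 held 13.6% in replicate 1 and 0% in replicate 2. S100a10-201 took 99.0% in replicate 1 and 98.2% in replicate 2, and the rest went to a retained-intron transcript.

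For S100a9, S100a9-201 took 78.1% and 79.7% of TPM, and S100a9-202 took 21.9% and 20.3%. The transcripts hold the same 339 coding bases, and they start at positions 90695711 and 90695721. S100a9-201 has 3 bases of its own and S100a9-202 has 10, so the split rests on reads over those few bases. Counted without alignment, S100a9-201 took 78.0% and 80.0%.

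For S100a8, the coding transcript S100a8-201 took 94.2% in replicate 1 and 95.6% in replicate 2. The retained-intron transcript S100a8-202 took the remaining 5.84% and 4.43%, which is 45.9 and 31.5 TPM. The alignment-free table gave S100a8-202 a larger share, 19.0% and 17.8%. The share assigned to S100a8-202 was thus similar in both libraries but differed between the ways of counting. It is an estimate and not a measured amount of retained intron.

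S100a6 had 3 transcripts above 5%, and their shares differed between the libraries. The coding transcript S100a6-203 took 62.8% in replicate 1 and 41.9% in replicate 2, and the coding transcript S100a6-201 took 21.4% and 19.9%. S100a6-202, a retained-intron transcript of 338 nt, took 15.7% and 38.2%. Its level was 15.5 TPM in replicate 1 and 49.2 TPM in replicate 2.

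The coding transcripts of S100a6 together were at 82.9 TPM in replicate 1 and 79.5 TPM in replicate 2. The whole gene was at 98.5 and 129 TPM, so the M21 split assigned the higher gene level in replicate 2 to S100a6-202. The M4 table, with 1 model for the gene, held nearly the same counts, 3237 and 3929 against 3241 and 3929. The split is therefore an assignment of reads and does not show which transcript was higher in replicate 2. Without alignment, S100a6-202 again had the larger share in replicate 2, 25.4% against 8.38%, and the coding share was 91.3% and 74.6%. S100a6-202 has 103 bases that no other S100a6 transcript holds, and S100a6-203 has 78, so these shares are estimates from few bases.

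The M4 table has 1 model of 719 nt for S100a6 and gave 60.5 TPM in replicate 1 and 72.2 TPM in replicate 2, from 3237 and 3929 counts. The effective length of the gene, a mean over its transcripts, was 337 nt in replicate 1 and 310 nt in replicate 2 under M21, against 554 and 560 nt under M4. Under M4 the step from S100a6 to S100a11 shrank to a log2 difference of 0.33 ± 0.36, within the spread between the libraries. S100a6 remained above S100a11 in each library of all 3 tables.

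**Figure D4:**
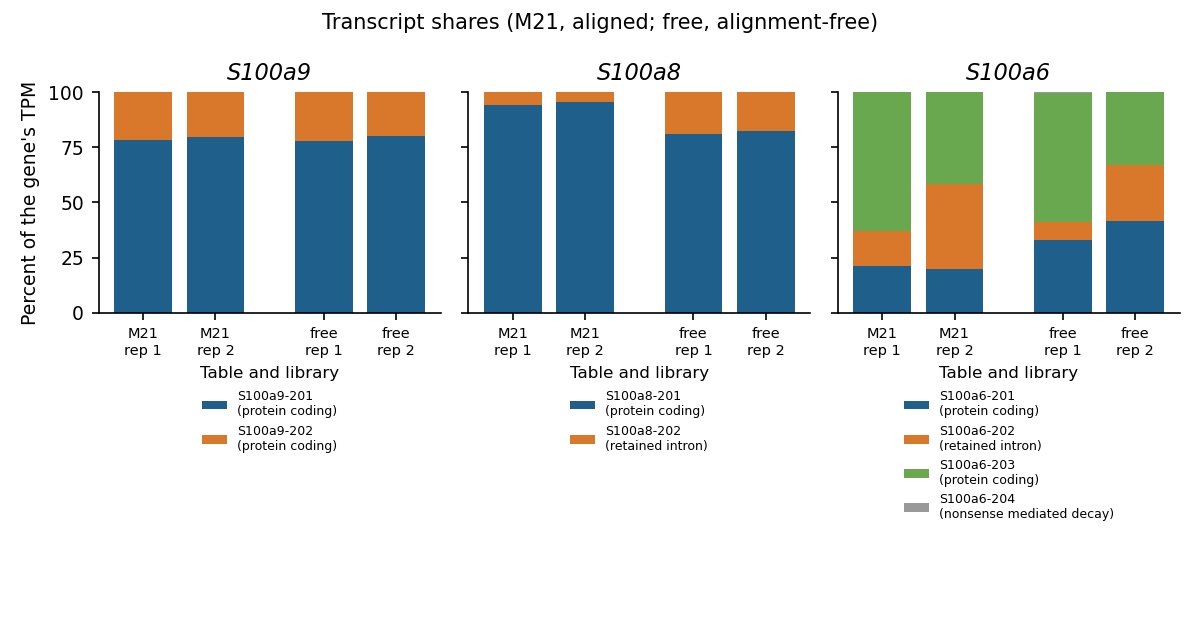
Percent of the gene's TPM taken by each annotated transcript of S100a9, S100a8 and S100a6 in replicates 1 and 2, from the M21 transcript table and from the alignment-free table. The S100a9 and S100a8 bars are alike between the libraries, while the retained-intron transcript S100a6-202 takes 15.7% in replicate 1 and 38.2% in replicate 2 of the M21 table.

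All 8 genes lie on chromosome 3 (GRCm38, GENCODE M21), 6 of them in 1 cluster. From S100a1 (ENSMUSG00000044080.9, positions 90511034 to 90514392, minus strand) to S100a9 (ENSMUSG00000056071.12, 90692632 to 90695721, minus strand) the cluster spans 184.7 kb and holds 16 annotated genes, 12 of them S100 genes. Between these ends lie S100a13 (ENSMUSG00000042312.9, 90514435 to 90524581), S100a4 (ENSMUSG00000001020.8, 90603771 to 90606045), S100a6 (ENSMUSG00000001025.8, 90612882 to 90624181) and S100a8 (ENSMUSG00000056054.9, 90668978 to 90670035), all on the plus strand. S100a11 (ENSMUSG00000027907.4, 93520488 to 93526287) and S100a10 (ENSMUSG00000041959.14, 93555080 to 93564643), both on the plus strand, lie 2.82 Mb beyond S100a9 and are separated from each other by 28.8 kb.

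Within the cluster, high, low and undetected S100 genes stood side by side. Of the 16 genes, 12 of them S100 genes, 5 were detected, all of them members: S100a13, S100a4, S100a6, S100a8 and S100a9. Over all protein-coding genes outside the mitochondrial genome, 34.9% were detected. That share leaves out small nuclear RNA genes and pseudogenes, which are among the 16, so the count of 5 is a description only. S100a5 had no count in either library of the gene tables, although it lies between S100a4 and S100a6. S100a7a, the next S100 gene before S100a8, was at 0.0700 and 0.0900 TPM from 8 and 10 counts, against 786 and 712 TPM for S100a8. The intervals deposited for S100a7a, 0.0444 to 3.19 TPM in replicate 1 and 0.0531 to 2.62 TPM in replicate 2, contain the detection level. S100a8 and S100a9 point in opposite directions with 22.6 kb between them, and no annotated gene lies in that gap.

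**Figure D5:**
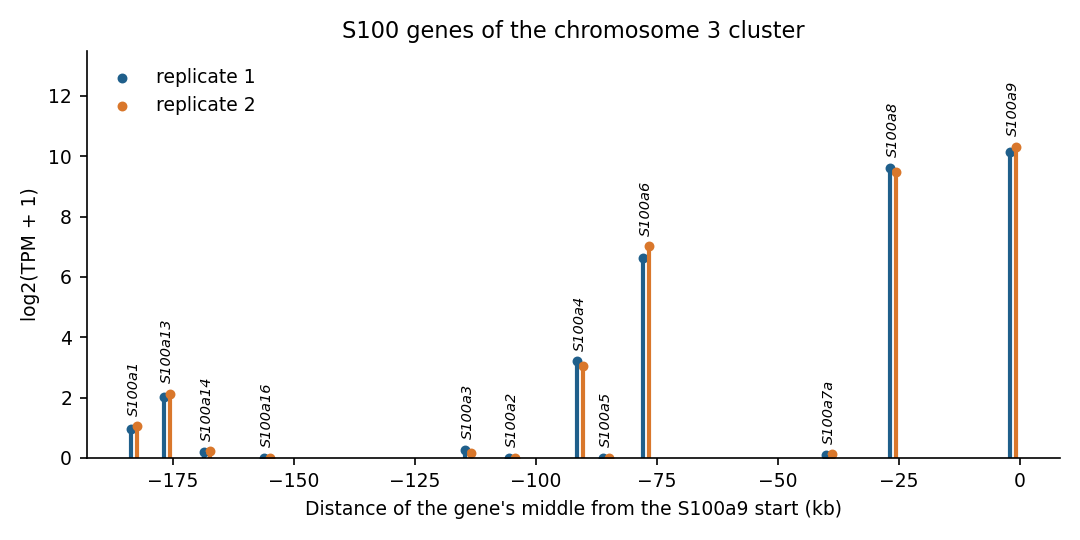
log2(TPM + 1) of the 12 S100 genes of the cluster in both libraries, against the distance of each gene's middle from the S100a9 start in kb. S100a8 and S100a9 are the tallest lines at the right end, while S100a16, S100a2 and S100a5 are at 0 in both libraries of the M21 gene table.

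S100a1 and S100a13 are read in opposite directions from starts that lie 42 bases apart. The bases between them, on the plus strand, are shown because both genes start at their edges, S100a1 to the left and S100a13 to the right.
S100a1-S100a13 gap (chr3:90514393-90514434, plus strand): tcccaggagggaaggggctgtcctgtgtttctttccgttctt
This gap has a GC content of 54.8%, near the median of 52.7% of the 32851 mouse promoter windows in RefSeq, each 250 bases before to 50 after a start. RefSeq gives the same start for S100a13 and one 62 bases farther inside for S100a1. S100a13 was 3.15-fold above S100a1 in replicate 1 and 3.18-fold in replicate 2, a log2 ratio of 1.66 ± 0.01, the step with the smallest spread in the order. The counts behind it are low, 48 and 54 for S100a1, and counting error is wider than that spread.

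Of 11 further S100 genes listed, 9 were found in the tables by symbol and none reached the detection level. S100a3 and S100a14, both in the cluster, were the highest of them by mean in the M21 gene table. S100a3 was at 0.200 TPM in replicate 1 and 0.110 TPM in replicate 2, from 8 and 9 counts, and S100a14 was at 0.140 and 0.160 TPM from 12 counts in each library. In the M21 and M4 gene tables, the genes S100a2, S100a5, S100a16, S100b, S100g and S100z had no count in either library, which in the M21 table allows up to 0.132 CPM (counts relative to depth) in replicate 1 and 0.140 CPM in replicate 2 (3 counts, counting error only). The alignment-free table gave S100a2 4 and 3 counts, S100a5 1 count in replicate 2 and S100a16 1 count in replicate 1. All 9 genes were under 1 TPM in both libraries, and among the members S100a1 also missed the rule, at 0.960 TPM in replicate 1. Since the lists were chosen with results of these data known, this division describes them and tests nothing.

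Genes for S100 partners and receptors were mostly present, and far below calprotectin. Of 28 listed genes, 22 (78.6%) passed the detection level, against 34.9% of all protein-coding genes outside the mitochondrial genome. The list had a median of 4.43 TPM in replicate 1 and 4.37 TPM in replicate 2 (4.40 ± 0.0460), against 0.120 and 0.110 for all those protein-coding genes. It was chosen with earlier results of these data known, so its share describes the list and tests nothing. Among receptors that respond to calprotectin, Tlr4 was at 5.19 and 4.73 TPM, its co-receptor Ly96 at 1.5 and 1.61 TPM, and Ager, the receptor for advanced glycation end products, at 1.70 and 1.28 TPM. S100a9 was 216-fold above Tlr4 in replicate 1 and 269-fold above it in replicate 2. Cd33, a sialic acid receptor whose human form is known to bind S100A9, was higher at 22.0 and 20.1 TPM.

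Intracellular targets held the top of the list. Myh9, the non-muscle myosin heavy chain that S100A4 binds, was at 99.0 and 98.9 TPM, above its S100 partner in both libraries. Ahnak, the giant scaffold that the S100A10-annexin complex binds, was at 16.6 and 14.7 TPM, and Anxa6 was at 15.2 and 14.8 TPM. Cacybp, the calcyclin-binding protein, was at 4.92 and 4.50 TPM, so S100a6 was 20.0-fold and 28.6-fold above it.

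The annexin genes Anxa2 and Anxa1 were above their S100 partners. S100a10 forms a tetramer of equal parts with annexin A2, and its TPM was 0.578 of that of Anxa2 in replicate 1 and 0.597 in replicate 2, a log2 ratio of -0.77 ± 0.03. Anxa2 itself was at 60.4 and 56.8 TPM. S100a11 was 0.744 and 0.710 of Anxa1, which was at 76.2 and 67.0 TPM. Both differences were larger than their spread and had the same sign in all 3 tables.

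At the bottom of the partner list, Ppfibp1, encoding a liprin that binds S100A4, was at 0.390 and 0.40 TPM. Il1a, encoding a cytokine whose release S100A13 aids, was at 0.160 and 0.0800 TPM, and Ryr1, encoding the muscle calcium channel that S100A1 binds, at 0.0900 and 0.0500 TPM. Fgf1, Syt1 and Plg had no count in the gene tables, and the alignment-free table gave 1 count for Fgf1 and 3 for Syt1, both in replicate 2. Fgf1 and Syt1 encode the growth factor and the vesicle protein of the S100A13 release complex.

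Calcium sensors outside the S100 family were also widely present, and below calprotectin. Of 20 listed genes, 18 (90%) passed the detection level, against 34.9% of all protein-coding genes outside the mitochondrial genome. The list had a median of 8.54 TPM in replicate 1 and 7.93 TPM in replicate 2 (8.23 ± 0.431). It too was chosen with earlier results known, so its share tests nothing. Lcp1, encoding the leukocyte actin bundler L-plastin, was the highest at 134 and 116 TPM, about the level of S100a6. Calm2, a calmodulin gene, was at 63.7 and 66.5 TPM, and Calm3 was at 23.5 and 18.8 TPM.

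Itpr1, a calcium release channel that has no EF hand although it was listed here, was at 19.2 and 17.5 TPM, and Sri, encoding sorcin, at 16 and 14.1 TPM. Aif1, a macrophage EF-hand gene, was at 0.690 and 0.430 TPM, and Rcn1 was the lowest at 0.380 and 0.410 TPM.

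Near-identical copies touched 2 of the 8 genes. S100a11 has 5 processed pseudogenes of at least 90% identity over at least 75 nt. Only Gm12854, identical at 99.0% of 297 nt, took counts, 23.7 in replicate 1 and 12.4 in replicate 2, beside 1917 and 1647 for S100a11, so the S100a11 level is uncertain to that extent. S100a4 shares 302 of its 498 nt with the overlapping gene Gm42674, which had no count in the gene table and 14.4 counts in replicate 1 of the alignment-free table.

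The libraries held RNA of other blood cells as well as neutrophils. Neutrophil markers were detected for 11 of 12 genes and summed to 1221 TPM in replicate 1 and 1091 TPM in replicate 2. Il1b alone was at 659 and 579 TPM, Csf3r at 273 and 235 TPM and Ly6g at 1.91 and 2.29 TPM. By median the order of the sums was reversed, with neutrophil markers at 16.5 and 15.1 TPM and B-cell markers at 49.3 and 46.3 TPM. Over all protein-coding genes outside the mitochondrial genome, 34.9% were detected. B-cell markers were detected for 8 of 8 (629 and 573 TPM), T-cell markers for 7 of 8 (28.5 and 27.4 TPM), monocyte markers for 6 of 8 (33.0 and 30.4 TPM), platelet markers for 5 of 6 (24.2 and 24.6 TPM) and red-cell markers for 5 of 7 (4328 and 4263 TPM). For natural killer cells 2 of 6 markers were detected (7.54 and 7.58 TPM), for eosinophils 2 of 5 (5.47 and 6.00 TPM), and for dendritic cells 1 of 5 (1.68 and 1.81 TPM). The erythroid factor Klf1 and the eosinophil granule gene Epx were at or near 0.

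Epithelial and skin markers, where several S100 genes are known to be abundant, were detected for 0 of 4 (0.210 and 0.150 TPM). S100a4, S100a6, S100a10 and S100a11 are also known from lymphocytes and monocytes, and the part of those cells in the members' levels was not tested. In such bulk libraries a smaller number of cells of a type and less RNA per cell cannot be told apart.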

How the data were processed

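The libraries summed to 22647028 (replicate 1) and 21471719 (replicate 2) expected counts. The authors deposited expected counts and TPM per gene and per transcript, with each transcript's percent of its gene's TPM, per the file headers. Bounds of a TPM interval, treated as a score, and a posterior mean TPM are also in the deposited M21 gene table. The tables use GENCODE M21, the main release, or M4, on the mm10 build, per the list of files in each deposited library. A further deposited table gives estimated counts and TPM per transcript with no alignment among its parents, and is called alignment-free. The program behind each table is not given in the sources used here. Likewise unstated is the strand setting, so reads of overlapping genes may not be told apart. M4 transcript tables were not used here.

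Genes were matched to GENCODE M21 by identifier. A total of 26248 entries with only a number held 1.63e-04% and 2.16e-04% of counts and stayed out of gene groups. Ratios were taken within a library, and count ratios have exact conditional binomial 95% intervals (counts rounded to whole numbers). Intervals and limits cover counting error only, since PCR copies are not independent molecules. Copies were found with BLAST+ 2.17.0. Alternatives included scaling by edgeR 4.0.16 and DESeq2 1.42.0 factors (R 4.3.3). Python 3.11.15, pandas 2.3.3, scipy 1.17.1 and matplotlib 3.10.9 were used. The interval and a form of the rule for a difference were tried on simulated counts that held counting error only. That form used counts in place of TPM and had no TPM minimum, so the rule itself was not tested.

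The members and all lists were chosen with earlier results of these data known. Named were all 8 members, the transcripts of detected members with a mean of at least 5%, the highest other S100 genes, and in the partner and EF-hand lists the 6 highest, the lowest and up to 3 below 1 TPM. A gene that meets this rule is not reported here. Tlr4, Ly96, Ager, Cacybp, Fgf1, Syt1, Plg, S100a5, S100a7a and S100a14 were named for their role, position or value, after values were seen. S100a7l2 and S100p were not matched by symbol and are not analysed here.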

Additional observations from a re-analysis of the deposited data

How the results depend on the processing

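The M4 table put the S100 genes at 3.01% of nuclear protein-coding TPM and the alignment-free table at 2.09%, against 2.52%, and expected counts put them at 0.459%. The log2 ratio of S100a9 to S100a8 was 0.21 under M4 against 0.68. The log2 ratio of S100a10 to Anxa2 was -1.02 in the alignment-free table and -2.05 in expected counts against -0.77. The number of other S100 genes called detected was 2 with the minimum TPM at 0.1, 1 at a minimum of 10 expected counts and 2 after rescaling TPM to nuclear protein-coding genes, against 0. With the minimum TPM at 5, 11 partners were detected against 22. The median percent of a member's TPM in its leading transcript was 92.2 in the alignment-free table. The other 51 comparisons of a main result with an alternative stayed within their limits, and no value changed sign. Single member levels moved by more than their spread in 17 cases, among them all 8 after rescaling. With TMM or DESeq2 factors, chosen after seeing the data, the count ratio between the libraries lost its gap from 1 for S100a8 and no other S100 gene crossed. No paired analysis was possible because the series has 1 group.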
